A study of Homo sapiens with 4 samples.

Results

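The SR proteins and the hnRNP proteins, the large families of RNA-binding proteins that steer splicing, were followed in LNCaP cells given exosomes of PC-3 cells. Every probe set of the array annotated to exactly 1 gene whose symbol begins with SRSF or HNRNP was taken, which gave 137 of 49293 probe sets and 34 of 18132 genes. They comprised 12 SRSF genes with 54 probe sets and 22 HNRNP genes with 83. Another 10 probe sets with such a symbol named several genes and were left out. With them went genes that had no probe set of their own, such as HNRNPH2, HNRNPCL3 and HNRNPCL4. Gene expression was measured on 4 arrays, 2 from LNCaP cells that received PC-3 exosomes and 2 from LNCaP cells that received the buffer PBS instead, with replicates numbered 1 and 2 in each group. LNCaP is an androgen-responsive prostate cancer line, PC-3 is an androgen-independent one, and exosomes are small vesicles that cells release. Both groups were grown in RPMI-1640 with fetal bovine serum, and the labels name no genetic change in either. The labels give no exosome dose or exposure time, nor do they say whether replicates came from separate cultures. The p-values therefore measure only the spread between these arrays, which may be technical.

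SR proteins carry RNA-recognition motifs and a tail rich in arginine and serine, and once phosphorylated they bind exons and recruit the spliceosome to nearby splice sites. The hnRNP proteins coat nascent transcripts, and many of them oppose SR proteins by blocking splice sites or looping exons out, while others act in mRNA export, stability and translation. Both families control their own amounts, in part through exons or retained introns that send their own mRNAs to nonsense-mediated decay. Different probe sets of 1 gene can therefore read different transcripts, and their fold changes were compared within each gene as well as between genes.

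Values were intensities as normalized by the authors, on a linear scale, and their log2 after adding 1 was tested with limma, PC-3 exosomes minus PBS. The median intensity per array ran from 110.8 to 112.5 across all probe sets. Of 13 listed markers of LNCaP and luminal prostate 10 were measured, and their summed intensity was 48781 and 49964 with exosomes, against 48891 and 48760.0 with PBS. Of 15 listed PC-3 markers 14 were measured, summing to 1587 and 1622 with exosomes, against 1478 and 1476 with PBS. Of these 14 0 fell, against 0.188% of all genes, and 1 rose (7.14%, against 0.7% of all genes). It was LCN2, a carrier of iron-binding siderophores, with 345 and 358 with exosomes, against 178 and 179 with PBS (log2 fold change 0.97, limma adjusted p = 4.4e-04). Without LCN2, left out after seeing the values, the other 13 summed to 1242 and 1265 with exosomes, against 1299 and 1297 with PBS, so the direction of the sum rests on LCN2. Of 14 measured markers of stromal, immune, basal and neural cells 0 passed the limma test (0 also at an unadjusted p under 0.05), with GFAP at 0.12 (adjusted p = 0.607) and SYP at -0.10 (adjusted p = 0.651). Of the LNCaP markers 0 passed the limma test as well, TMPRSS2 being at 0.14 (adjusted p = 0.173) and KLK2 at -0.07 (adjusted p = 0.474). Of these 10 markers 1 was higher at an unadjusted p under 0.05 (10%, against 5.76% of all genes). In bulk RNA of this kind, fewer cells that make a transcript and less of it per cell cannot be told apart.

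No SRSF or HNRNP gene passed the limma test. Of 34 genes 0 were higher and 0 lower at a Benjamini-Hochberg adjusted p under 0.05 over all 18132 genes, where 0.7% of all genes were higher and 0.188% lower. The smallest adjusted p was 0.120, for HNRNPDL. Without adjustment, 10 of the 34 genes (29.4%) had a p under 0.05 and lay lower and 0 lay higher, while by that rule 5.16% of all genes were lower and 5.76% higher. The fold changes were small, from -0.20 for HNRNPH1 to 0.11 for HNRNPCL1 on the log2 scale, that is 0.872 to 1.08 times the PBS level. HNRNPCL1 was among the dim genes that did not reach the average level of the background controls, and the highest value among brighter genes was 0.07, for HNRNPM. The limma 95% intervals of the 34 genes, which are not adjusted for the number of genes, lay between -0.32 and 0.29, and 26 of them stayed within 0.25 of 0 on both sides. Their SE on the log2 scale had a median of 0.047, and that of all genes 0.078. A smaller SE lets a smaller fold change reach a given p. The shares at an unadjusted p, here and by family below, were not matched on level.

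**Figure D1:**
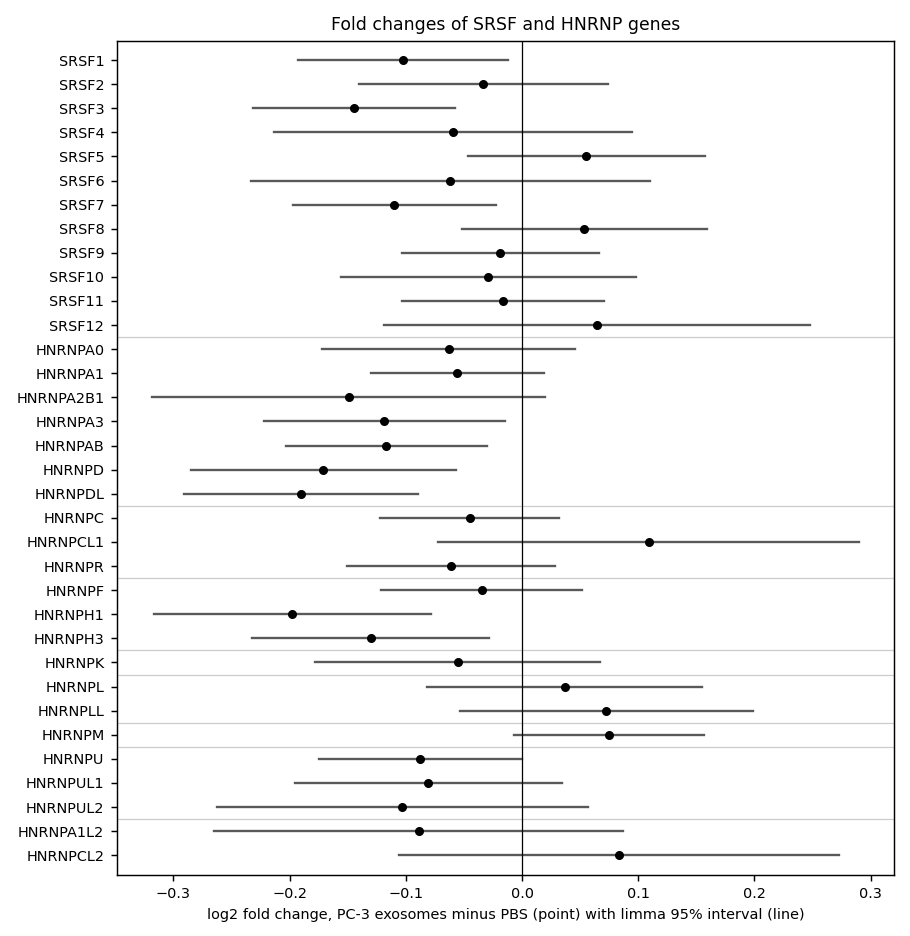
Log2 fold change of each SRSF and HNRNP gene (PC-3 exosomes minus PBS, 2 arrays each), with points for the limma estimate from the brightest probe set of the gene and lines for its 95% interval. The intervals lie between -0.32 and 0.29, and 10 of the 34 lie wholly below 0.

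Small as they were, the differences leaned one way. Fold changes lay below 0 in 26 of 34 genes (76.5%), beside 56% of all genes, and the median was -0.06, beside -0.01 over all genes. Both exosome arrays were below both PBS arrays in 16 genes (47.1%, against 21.9% of all genes) and above both in 4 (11.8%, against 17.8%). Genes at or above the median level of all genes hold 30 of the 34. Among these 30, exosome arrays were below PBS arrays in 15 (50%), against 19.9% of all genes in that range. They were above PBS arrays in 2 (6.67%), against 23.7%. That range is no match on level, since the 30 all stood at the 82.1 percentile of gene level or higher. Array by array, the median deviation of the 34 genes from their own means was -0.05 and -0.02 with exosomes, against 0.03 and 0.02 with PBS. Exosome replicate 1 stood lowest, and without it the median log2 fold change of the 34 genes was -0.03. The 24 probe sets for the poly-A spike-in RNAs averaged 6.94 and 7.02 with exosomes, against 6.90 and 6.77 with PBS, on the log2 scale. The group means were 6.98 and 6.84, a gap little wider than that between the 2 PBS arrays. With arrays centred on the spike-ins instead, 2 of the 34 genes fell, HNRNPH1 (-0.34, adjusted p = 0.0076) and HNRNPDL (-0.33, adjusted p = 0.0098). By that centring 1.8% of all genes were lower and 0.331% higher in limma. That scale moves the median of all genes to -0.15 and of the 34 genes to -0.20, and the 8 genes above 0 on the deposited scale, HNRNPM, HNRNPL, HNRNPLL, HNRNPCL1, HNRNPCL2, SRSF5, SRSF8 and SRSF12, lie below 0 on it.

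**Figure D2:**
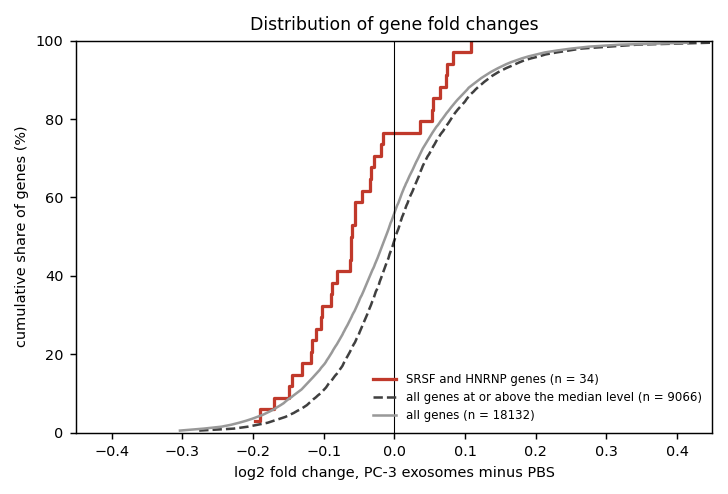
Cumulative share of genes (vertical axis, percent) by log2 fold change (horizontal axis, PC-3 exosomes minus PBS) for the 34 SRSF and HNRNP genes, for all genes at or above the median level and for all 18132 genes. At 0 the curve of the SRSF and HNRNP genes has reached 76.5%, and that of all genes 56%.

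Among the SR proteins the lowest fold changes were those of SRSF3, SRSF7 and SRSF1. SRSF3, the smallest SR protein and an adaptor for mRNA export, had an intensity of 6773 and 6947 with exosomes, against 7405 and 7765 with PBS. Both exosome arrays were below both PBS arrays, by a log2 fold change of -0.14 (SE 0.038, limma adjusted p = 0.176). SRSF7, close to SRSF3 in sequence and also an export adaptor, had 5263 and 5262 with exosomes, against 5811 and 5552 with PBS. Its groups did not overlap either, and the log2 fold change was -0.11 (SE 0.039, limma adjusted p = 0.321). SRSF1, the founding SR protein and an oncogene when overproduced, had 3436 and 3562 with exosomes, against 3746 and 3765 with PBS, again without overlap (log2 fold change -0.10, SE 0.040, limma adjusted p = 0.387).

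These 3 of the 12 SR genes (25%) had an unadjusted p under 0.05 and lay lower, against 5.16% of all genes. With the mean of all its probe sets in place of the brightest, SRSF3 was at -0.076 and SRSF7 at -0.072. The SRSF3 mean includes 11760279_a_at, at 0.18, which did not reach the average level of the background controls. In the other 9 SR genes the log2 fold changes of the brightest probe sets ran from -0.06 to 0.06. SRSF2, an exon-binding factor mutated in blood cancers, was at -0.03. SRSF4, SRSF6, SRSF9, SRSF10 and SRSF11 lay between -0.06 and -0.02. By that probe set each had overlapping groups. Without overlap, SRSF2 11749302_s_at (-0.12) and SRSF10 11721310_s_at (-0.15) lay below PBS and SRSF2 11761530_x_at (0.04) above it. The mean of all probe sets put SRSF9 at -0.080, SRSF10 at -0.054, SRSF2 at -0.040 and SRSF11 at 0.035. SRSF10 is known as a splicing repressor when dephosphorylated. SRSF5 was at 0.06 and overlapped. SRSF8, which arose as a retrotransposed copy of SRSF2, was at 0.05, with 1386 and 1417 with exosomes, against 1343 and 1358 with PBS. SRSF12 was dim, at 44.0 and 44.0 with exosomes, against 42.4 and 41.7 with PBS. That level does not reach the average of the array's background controls, 5.63 to 5.67 per array on the log2 scale, which is no cutoff for a given probe set.

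**Figure D3:**
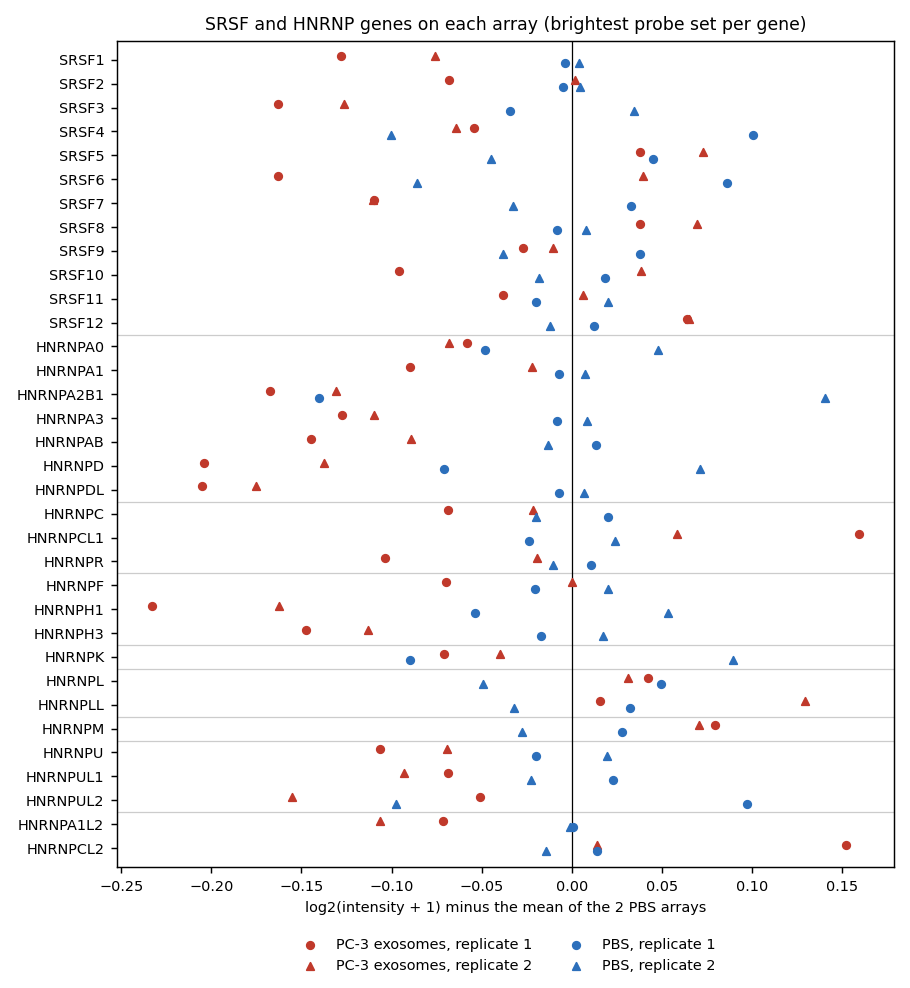
Each SRSF and HNRNP gene on each of the 4 arrays, as log2(intensity + 1) of its brightest probe set minus the mean of the 2 PBS arrays, with lines between families. Red marks are PC-3 exosomes and blue marks PBS, and in 16 genes both red marks lie left of both blue ones.

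The hnRNP A/B and D proteins, which bind AG-rich or AU-rich RNA, had fold changes below 0 in 7 of 7 genes, with a median of -0.12. Both exosome arrays were below both PBS arrays in 6 of the 7 (85.7%, against 21.9% of all genes), and 4 lay lower at an unadjusted p under 0.05 (57.1%, against 5.16%). HNRNPDL, a relative of HNRNPD, had 1599.9 and 1633 with exosomes, against 1836 and 1853 with PBS. The gap between the groups was wider than the spread within either, and the log2 fold change was -0.19 (SE 0.044, limma adjusted p = 0.120). The mean of the 5 HNRNPDL probe sets gave -0.073 (limma adjusted p = 0.774), with 3 of them below 0 and 2 dimmer ones above it. HNRNPD, known as AUF1, which binds AU-rich elements and directs mRNA decay, had 6014 and 6297 with exosomes, against 6595 and 7278 with PBS. Its groups did not overlap, although the PBS arrays spread widely (log2 fold change -0.17, SE 0.050, limma adjusted p = 0.225), and without PBS replicate 2 it was at -0.0999. HNRNPD and HNRNPDL are neighbours on their chromosome, with 0 protein-coding genes between them in the RefSeq annotation of GRCh38.p14.

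HNRNPAB, which acts in mRNA transport and transcription, had 5067 and 5264 with exosomes, against 5652 and 5549 with PBS, a log2 fold change of -0.12 (SE 0.038). HNRNPA3 had 1355 and 1372 with exosomes, against 1472 and 1489 with PBS, also at -0.12 (SE 0.046), and at -0.066 as the mean of its probe sets. In both genes the exosome arrays were the lower pair, with limma adjusted p of 0.288 and 0.377. HNRNPA1, the best known opponent of SR proteins at splice sites, had 18969 and 19881 with exosomes, against 20085 and 20286 with PBS (log2 fold change -0.06). That probe set is of the _x_at kind, which can bind related transcripts such as those of its pseudogenes. Without such probe sets HNRNPA1 rested on 11760085_s_at alone, at 0.03. The other 4 HNRNPA1 probe sets, all of the _x_at kind, lay below 0. Of these, 11753459_x_at was at -0.19 without overlap (limma adjusted p = 0.155). HNRNPA2B1, which reads methylated adenosines in RNA and has been tied to the sorting of microRNAs into exosomes, had 7242 and 7428 with exosomes, against 7379 and 8965 with PBS. There PBS replicate 2 stood high and PBS replicate 1 lay between the exosome arrays. The log2 fold change of -0.15 had an SE of 0.075 and was -0.0088 without PBS replicate 2. The other HNRNPA2B1 probe set, 11742680_at, was at -0.0029 with overlapping groups, and the mean of both was -0.076. HNRNPA0, which binds AU-rich RNA, was at -0.06. Its other probe set, 11716291_s_at, was at 0.0034 with overlapping groups, and the mean of both was -0.030.

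The hnRNP F and H proteins bind runs of G. HNRNPH1 had the lowest fold change of the 34 genes, with 1717 and 1802 with exosomes, against 1944 and 2094 with PBS (log2 -0.20, SE 0.053, limma adjusted p = 0.177). HNRNPH3 had 1662 and 1702 with exosomes, against 1819 and 1863 with PBS (log2 -0.13, SE 0.045, limma adjusted p = 0.316). In neither did the groups overlap. HNRNPF, whose product shares the G-run preference, was at -0.03 with overlapping groups.

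HNRNPU, the scaffold attachment factor that ties RNA to chromatin, had 4375 and 4489.7 with exosomes, against 4646 and 4775 with PBS. Its log2 fold change was -0.09 (SE 0.039, limma adjusted p = 0.457), with no overlap, and its relatives HNRNPUL1 and HNRNPUL2 were at -0.08 and -0.10. The mean of the 10 HNRNPU probe sets was -0.035. It includes 11722002_a_at (0.16), 11758860_at (0.04) and 11744381_s_at (-0.12), which did not reach the average level of the background controls. HNRNPUL1 had 931.0 and 915 with exosomes, against 992 and 961 with PBS, while HNRNPUL2 overlapped and ran from -0.20 to -0.0058 on leaving out 1 array, lowest without PBS replicate 2 and highest without PBS replicate 1. HNRNPR had 6782 and 7190.0 with exosomes, against 7339.9 and 7233 with PBS, at -0.06. HNRNPC, which binds runs of uridine and shields cryptic exons, was at -0.05, and HNRNPK, which binds runs of C, at -0.06. HNRNPL, which binds CA repeats, and its relative HNRNPLL lay above 0, at 0.04 and 0.07, with overlapping groups. In HNRNPLL the other 4 probe sets lay below 0, and the mean of all 5 was -0.024.

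HNRNPM, a splicing factor known from the epithelial to mesenchymal transition in breast cancer cells, was the only bright hnRNP gene, among those at or above the median level of all genes, with both exosome arrays above both PBS arrays. Its brightest probe set had 7620.1 and 7572 with exosomes, against 7351 and 7075 with PBS (log2 fold change 0.07, SE 0.036, limma adjusted p = 0.50). The other probe sets of HNRNPM lay the other way. HNRNPCL1, HNRNPCL2 and HNRNPA1L2, which resemble HNRNPC and HNRNPA1 so closely that their probe sets may share signal with them, were dim. They had intensities of 18.1 to 24.1 over the 4 arrays, and their log2 fold changes were 0.11, 0.08 and -0.09.

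Of the 137 probe sets taken singly, 0 were higher and 0 lower by limma over all 49293 probe sets, of which 0.219% were higher and 0.0122% lower. Unadjusted, 26 of the 137 (19%) had a p under 0.05 and lay lower and 0 lay higher, against 4.15% lower and 4.67% higher among all probe sets. Exosome arrays lay below PBS arrays in 54 (39.4%, against 20.6% of all probe sets) and above in 10 (7.3%, against 17% of all). Fold changes were below 0 in 104 of the 137 (75.9%), against 54.3% of all probe sets. Probe sets of 1 gene read overlapping transcripts and are not independent. With arrays centred on the poly-A spike-ins 12 of the 137 were lower and 0 higher, from HNRNPA1, HNRNPC, HNRNPD, HNRNPDL, HNRNPH1, HNRNPH3, HNRNPM and HNRNPU, while 1.7% of all probe sets were lower and 0.272% higher by that centring. Of the 137, 13 did not reach the average level of the background controls, and of these 8 were above 0 and 5 (38.5%) below, against 58.4% below among all probe sets that dim. Of the other 124, 25 were above 0 and 99 (79.8%) below, against 52.6% of all at that level.

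Among the genes with 8 or more probe sets, HNRNPD, HNRNPU and SRSF5, only HNRNPD had all of them on the same side of 0. Its 8 probe sets all lay below 0, from -0.29 to -0.03, and in 6 of them the exosome arrays were below both PBS arrays. Probe set 11749303_s_at had 2315 and 2489.8 with exosomes, against 3015 and 2850.3 with PBS. That difference of -0.29 (SE 0.053) had the smallest adjusted p of the 137 probe sets in the limma fit, 0.131. The HNRNPD probe sets 11728678_s_at and 11749304_x_at were at -0.26 and -0.23 without overlap. The dimmest, 11760952_x_at at 22.6 and 24.5 with exosomes and 24.3 and 23.7 with PBS, overlapped.

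Of the 27 genes with more than 1 probe set, 11 had all of them below 0, 2 had all above 0 and 14 had them on both sides. SRSF1 and HNRNPK had 6 of 6 below 0, SRSF9, HNRNPA3 and HNRNPUL1 4 of 4, and HNRNPAB, HNRNPH3 and HNRNPR 3 of 3. SRSF5 had the most probe sets, 11, and they were split, 6 above 0 and 5 below, from -0.07 to 0.14. HNRNPF was split as well, with 4 above and 3 below, none beyond 0.08 from 0. HNRNPU ran from -0.15 to 0.16 over 10 probe sets. The highest value of all, singled out after the values were seen, was that of SRSF11 probe set 11761781_a_at, at 0.38 (SE 0.20). It was dim and scattered, with 54.3 and 71.6 with exosomes, against 59.0 and 38.3 with PBS, and the groups overlapped.

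**Figure D4:**
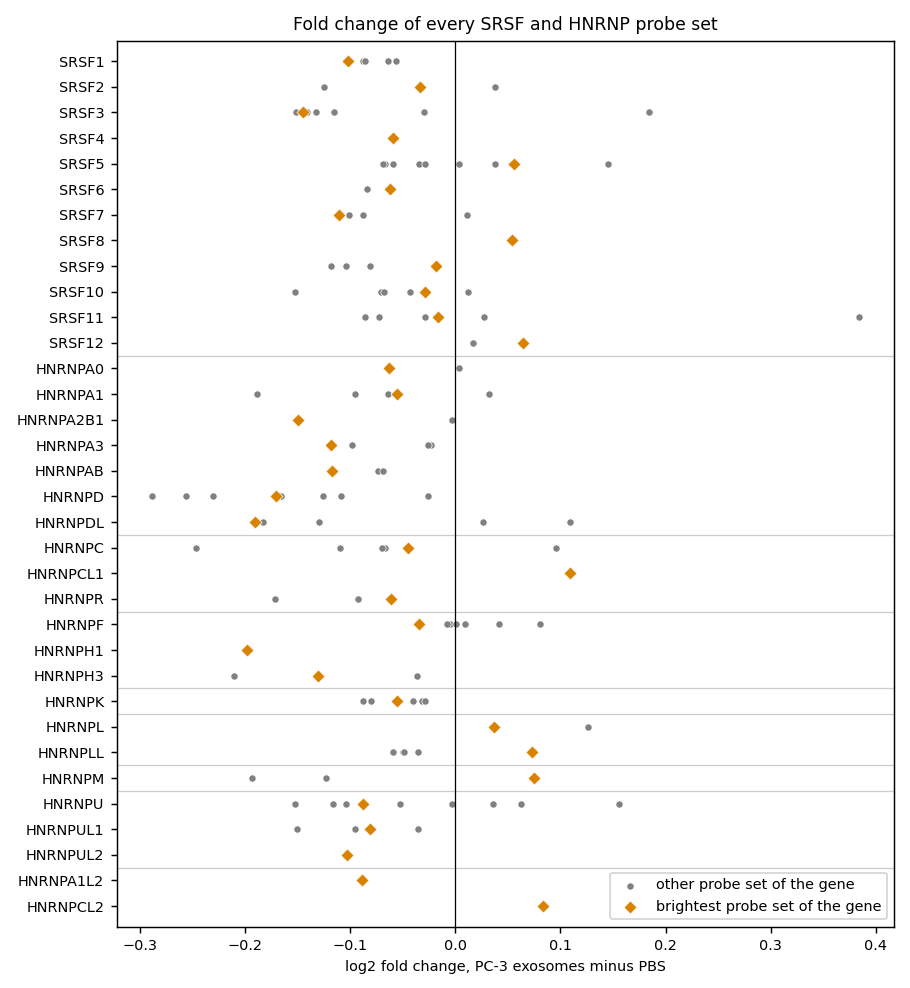
Log2 fold change (PC-3 exosomes minus PBS) of each of the 137 probe sets, 1 line per gene, with orange diamonds for the brightest probe set of a gene and grey points for the others. HNRNPD lies wholly below 0, SRSF5 lies on both sides, and a single SRSF11 probe set reaches 0.38.

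Unequal change within a gene was tested by taking each probe set's log2 value minus that of the brightest probe set of its gene on the same array. Of the 103 such differences in 27 genes 0 passed limma's test, while 0.00372% of 26856 differences over all genes did. Without adjustment, 2 lay higher and 2 lower at a p under 0.05, 3.88% of the 103, against 6.34% of all (2.82% higher and 3.53% lower), so the share was no larger than the background. The median SE of such a difference was 0.087 for the 103, wider than for a gene, and the smallest adjusted p was 0.775.

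The 2 lowest p among these 103 were both in HNRNPM. Probe set 200072_PM_s_at had 3788 and 3715 with exosomes, against 4447 and 4136 with PBS, a log2 fold change of -0.19. Probe set 11739175_a_at had 5642 and 5579 with exosomes, against 6109 and 6109 with PBS, at -0.12. Each lay below PBS without overlap, opposite to the brightest probe set at 0.07, and the differences from it were -0.27 (SE 0.075) and -0.20 (SE 0.065), both with a limma adjusted p of 0.775. Whether HNRNPM as a whole lay above or below PBS thus turned on the probe set taken: the mean of its 3 probe sets gave -0.08.

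Next came SRSF3 probe set 11760279_a_at, which had 29.3 and 24.8 with exosomes, against 23.6 and 23.6 with PBS. It lay above PBS by 0.18, where the brightest was at -0.14, a difference of 0.33 (SE 0.12). Of the 7 SRSF3 probe sets the other 6 were below 0, 4 of them without overlap. HNRNPDL probe set 11720626_s_at had 388 and 404 with exosomes, against 387 and 391 with PBS, and differed by 0.22 (SE 0.083) from the brightest. Dim HNRNPU probe set 11722002_a_at, with 36.2 and 41.8 with exosomes, against 34.2 and 35.4 with PBS, differed by 0.24 (SE 0.0999). HNRNPC probe set 11732247_s_at, with 752 and 837 with exosomes, against 968 and 914 with PBS, differed by -0.20 (SE 0.092). None of these passed the adjustment, and the probe sets of SRSF3 and HNRNPU named here did not reach the average level of the background controls.

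**Figure D5:**
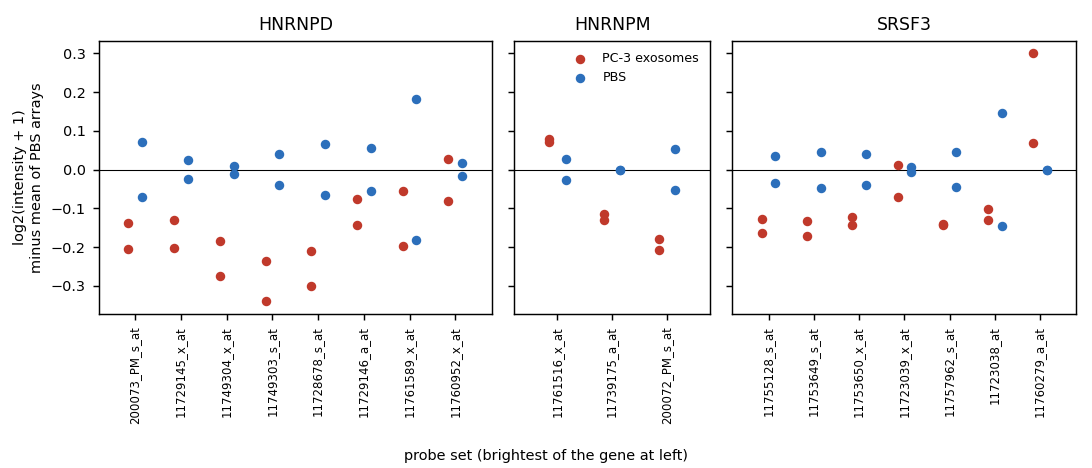
Every probe set of HNRNPD, HNRNPM and SRSF3 on each array, as log2(intensity + 1) minus the mean of the 2 PBS arrays, with PC-3 exosomes in red and PBS in blue and the brightest probe set of a gene at the left. The brightest HNRNPM probe set lies above PBS while its other 2 lie below, and the dimmest SRSF3 probe set lies above PBS.

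The other listed parts of the splicing machinery also held no gene past the limma threshold. For reading the counts by list, 21.9% of all genes had both exosome arrays below both PBS arrays, and at an unadjusted p under 0.05 5.16% were lower and 5.76% higher. In the core snRNP and Sm proteins, which form the spliceosome's particles, 0 of 14 passed. Exosome arrays were below PBS arrays in 11 of the 14 (78.6%), 6 had an unadjusted p under 0.05 and lay lower, and the median was -0.07. SNRPF was at -0.14 (adjusted p = 0.195) and SNRPB at -0.12 (adjusted p = 0.305). In the SR-related proteins 0 of 18 passed, 4 were lower at an unadjusted p under 0.05 and the median was -0.05. TRA2B, a partner of SR proteins on exons, was at -0.14 (adjusted p = 0.144), and SON, a scaffold of nuclear speckles, at -0.17 (adjusted p = 0.228).

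Factors that recognise the branch site and the 3' splice site had a median of -0.02, with 0 of 12 past the threshold and 1 lower at an unadjusted p under 0.05. SF3B3 was at -0.14 (adjusted p = 0.322) and U2AF2 at -0.09 (adjusted p = 0.593), which was -0.0088 without PBS replicate 2. In the PRPF and tri-snRNP factors 0 of 15 passed, 3 were lower at an unadjusted p under 0.05 and the median was -0.03, with PRPF38B at -0.20 (adjusted p = 0.289) and PRPF4 at -0.12 (adjusted p = 0.423). The listed SR protein kinases and nuclear importers had a median of -0.02, 0 of 11 past the threshold and 0 at an unadjusted p under 0.05. SRPK1, the main cytoplasmic SR kinase, was at -0.07 (adjusted p = 0.662) and TNPO3, the SR importin, at 0.07 (adjusted p = 0.667).

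Among other regulators of alternative splicing 0 of 31 passed, with a median of -0.04, and unadjusted 1 lay higher and 7 lower at a p under 0.05. SYNCRIP, known as hnRNP Q, was at -0.18 (adjusted p = 0.128) and RBM10, an exon-skipping factor, at -0.22 (adjusted p = 0.206). The nonsense-mediated decay factors had a median of 0.01, with 0 of 12 past the threshold and 2 lower at an unadjusted p under 0.05. MAGOHB, of the exon junction complex, had 562 and 535 with exosomes, against 696 and 652 with PBS, and RBM8A, its partner in that complex, was at -0.14 (adjusted p = 0.231). MAGOHB's log2 fold change of -0.30 had an adjusted p of 0.072 in the limma fit. Over 15 alternative settings its adjusted p ran from 3.8e-04 to 0.60, and it passed in 4 of them, 1 of which set the threshold at 0.1. With the mean of all probe sets of a gene, the values nearer to 0 by over 1.5 times were those of SNRPF (-0.079), SON (-0.11), PRPF38B (-0.11), SRPK1 (-0.037), TNPO3 (0.010), SYNCRIP (-0.056), RBM8A (-0.025) and MAGOHB (-0.16), and U2AF2 was at 0.018.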

How the data were processed

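MAS5 and RMA are named, without version or role, per the submitters' processing notes. The deposited values are intensities, normalized by the authors on a linear scale, 1 per probe set and array. The labels describe the extraction as from brain tissue, while each sample label says LNCaP. Of 49395 probe sets 102 were controls, 44988 named 1 gene, 1832 several and 2473 none, by GEO's platform annotation. No further normalization was applied. Log2(intensity + 1) was compared between groups by limma 3.58.1 with an intensity trend in eBayes, under R 4.3.3, two-sided, with Benjamini-Hochberg adjustment over all rows of a fit and a threshold of 0.05. Since 2 arrays against 2 allow no exact permutation p below 0.333, each p rests on limma's variance model. The fits had 1 row per gene (its probe set with the highest mean), 1 per probe set, and 1 per difference from the brightest probe set of a gene. Genes were counted as overlapping or not from the 4 array values. Whether the fits could detect differences as small as those of the SRSF and HNRNP genes was not tested. In the fit with 1 row per gene, the smallest absolute log2 fold change among all genes past the threshold was 0.199. The SRSF or HNRNP gene with the largest difference in either direction, HNRNPH1, was at -0.198. No gene with a difference as small as theirs therefore passed in that fit, and their not passing does not show that they were unchanged. Values on every array are given for the 15 member genes with the smallest p and the 6 within-gene differences with the smallest p, and from each other list the genes past the threshold or else the 2 with the smallest p are named. The members and lists were chosen with earlier results of these data known. Same-numbered replicates did not deviate together (r = -0.04 across 18132 genes, which are not independent). The number of arrays, 2 per group, limits precision. Figures were drawn with matplotlib 3.10.9. No sequence is printed, because probe sequences were not used here.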

Additional observations from a re-analysis of the deposited data

How the results depend on the processing

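The counts of SRSF and HNRNP genes and probe sets past the threshold, and of differences within a gene, were 0 under quantile normalization, centring on array medians, a pseudocount of 16, testing levels at or above the median only, leaving out _x_at probe sets, eBayes without a trend, robust eBayes, a threshold of 0.1, the replicate block and leaving out each array, and for genes also with the mean of all probe sets. Centring on the poly-A spike-ins was the exception, with 2 genes and 12 probe sets lower and a median log2 fold change of -0.20, while over all features 326 genes and 836 probe sets were lower, 60 and 134 higher, and the all-gene median was -0.15. How evenly the spike-ins were added is not stated in the sources used here. With the replicate number as a block 0 genes and 0 probe sets passed and the median was -0.060, while over all genes 2 were higher and 0 lower, against 127 and 34 without it, and LCN2 had an adjusted p of 0.0727. Without _x_at probe sets, which can bind several transcripts, 31 of the 34 genes remained and their median was -0.081. Leaving out an array moved the median of the 34 genes between -0.070 and -0.031. Several fold changes near 0 changed sign. The spike-in scale put HNRNPCL1 at -0.031, HNRNPCL2 at -0.056, HNRNPL at -0.10, HNRNPLL at -0.067, HNRNPM at -0.065, SRSF12 at -0.075, SRSF5 at -0.084, SRSF8 at -0.086, TNPO3 at -0.070, TMPRSS2 at -0.0035 and GFAP at -0.017. Without _x_at probe sets the values put HNRNPA1 at 0.032 and HNRNPM at -0.12. The mean of all probe sets put HNRNPF at 0.012, HNRNPLL at -0.024, HNRNPM at -0.080, SRSF11 at 0.035 and U2AF2 at 0.018. Leaving out an array moved HNRNPF from -0.070 to 2.96e-05, SRSF10 from -0.096 to 0.038, SRSF11 from -0.038 to 0.00601, SRSF2 from -0.068 to 0.0018, SRSF6 from -0.16 to 0.040, SRSF4 from -0.16 to 0.041, SRSF9 from -0.057 to 0.019, HNRNPK from -0.14 to 0.034 and HNRNPL from -0.013 to 0.086. Why these values moved was not tested.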

Other observations

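Of the 10 probe sets that name an SRSF or HNRNP symbol along with other genes, 5 lay below 0 and 5 above, and 0 passed the limma test over all probe sets (1 at an unadjusted p under 0.05). A probe set naming HNRNPA1 and its pseudogene HNRNPA1P10, 11719462_x_at, had 11994 and 12043 with exosomes, against 13618 and 13219.9 with PBS, without overlap (log2 fold change -0.16, SE 0.032, adjusted p = 0.168). The 3 that name HNRNPH2 together with the readthrough gene RPL36A-HNRNPH2 lay between 0.06 and 0.13, with overlapping groups, on the other side of 0 from HNRNPH1 and HNRNPH3.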
